A study of Homo sapiens with 27 samples.

Results

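The IL-10, IL-12 and IL-23 cytokine group comprised 10 genes, IL10, IL10RA, IL10RB, IL12A, IL12B, IL23A, EBI3, IL27, IL15 and IL15RA, which were measured by 12 of the 30968 probes of the array. Every probe that the platform's annotation assigned to 1 of these symbols was included, whatever its value, and IL10RA and EBI3 had 2 probes each. Values came from U937, an established human monocytic cell line derived from a histiocytic lymphoma. The 3 groups were cells pretreated with the glutaminyl cyclase inhibitor PBD150 (10 µM) for 2 h and then given lipopolysaccharide (LPS, 4 µg/ml), cells given LPS alone, and untreated cells, all cultured for 48 h in the same serum-containing medium. Each group had 3 biological replicates, and each replicate was read on 3 arrays, 27 arrays in all. The labels call the treated cells macrophages and name no differentiating agent. No group received PBD150 without LPS.

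Interleukin 10 is the main cytokine by which macrophages restrain their own inflammatory output. It binds IL10RA, the ligand-binding chain, which pairs with IL10RB, a chain shared with other cytokines of the family, and the complex signals through JAK1, TYK2 and STAT3. The interleukin-12 family consists of paired chains: IL12A with IL12B forms IL-12, IL23A with IL12B forms IL-23, IL27 with EBI3 forms IL-27, and IL12A with EBI3 forms IL-35, so a change of 1 chain does not by itself give the change of a cytokine. IL15 is presented to neighbouring cells on IL15RA and signals through IL2RB and the common gamma chain IL2RG. LPS acts on monocytic cells through Toll-like receptor 4, whose pathway reaches NF-kB, AP-1 and interferon regulatory factors.

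The promoter sequences of the genes whose probes changed most clearly are shown first, because the 4 motifs searched in them are those of factors downstream of LPS, interferon or STAT proteins. They are RefSeq sequences of GRCh38.p14, read 5′ to 3′ on the strand of the gene from 250 bases before an annotated start to 30 bases after it. Capitals mark matches, on either strand, to the NF-kB motif (GGGA, any 4 bases, then CC), the AP-1 motif TGANTCA, the gamma-activated site TTCNNNGAA, or the interferon response element (GAAA, any 2 bases, then GAAA). The coordinates are chr19:4229273-4229552 for EBI3 (plus strand), chr11:117989695-117989974 for IL10RA (plus strand), chr21:33266117-33266396 for IL10RB (plus strand), chr3:159988585-159988864 for IL12A (plus strand) and chr1:206772465-206772744 for IL10 (minus strand).
EBI3: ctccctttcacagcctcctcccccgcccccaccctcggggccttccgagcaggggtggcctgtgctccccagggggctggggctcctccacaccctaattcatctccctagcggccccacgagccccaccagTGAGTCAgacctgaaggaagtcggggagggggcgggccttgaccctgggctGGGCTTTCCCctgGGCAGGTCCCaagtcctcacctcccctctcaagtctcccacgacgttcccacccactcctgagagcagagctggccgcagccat
IL10RA: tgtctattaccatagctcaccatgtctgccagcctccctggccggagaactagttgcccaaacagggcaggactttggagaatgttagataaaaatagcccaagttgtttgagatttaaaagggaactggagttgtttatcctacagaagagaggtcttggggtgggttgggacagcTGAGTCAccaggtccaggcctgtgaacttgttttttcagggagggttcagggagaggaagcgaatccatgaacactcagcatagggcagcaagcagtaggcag
IL10RB: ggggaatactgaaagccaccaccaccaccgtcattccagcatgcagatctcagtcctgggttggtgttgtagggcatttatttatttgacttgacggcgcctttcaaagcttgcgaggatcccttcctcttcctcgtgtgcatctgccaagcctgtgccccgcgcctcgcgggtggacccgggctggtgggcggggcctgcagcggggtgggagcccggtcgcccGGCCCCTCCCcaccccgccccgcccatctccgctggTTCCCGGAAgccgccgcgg
IL12A: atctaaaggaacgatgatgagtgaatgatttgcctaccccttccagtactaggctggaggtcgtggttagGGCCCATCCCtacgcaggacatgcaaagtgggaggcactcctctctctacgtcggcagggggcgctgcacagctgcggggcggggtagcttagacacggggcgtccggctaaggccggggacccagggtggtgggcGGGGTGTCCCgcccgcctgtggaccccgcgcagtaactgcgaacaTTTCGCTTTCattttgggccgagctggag
IL10: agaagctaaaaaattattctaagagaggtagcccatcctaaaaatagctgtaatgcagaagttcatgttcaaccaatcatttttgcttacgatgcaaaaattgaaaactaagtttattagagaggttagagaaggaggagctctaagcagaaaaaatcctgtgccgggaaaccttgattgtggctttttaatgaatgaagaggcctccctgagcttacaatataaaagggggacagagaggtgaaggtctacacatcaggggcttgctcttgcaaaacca

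Matches were counted in windows reaching 50 bases past the start, of which 8 members had 13. The EBI3 window held an AP-1 match beginning 118 bases before the start and NF-kB matches beginning 67 and 54 bases before it. The IL10RA window lay at an annotated start inside the gene (chr11:117986394-118003037), not at the gene's first base. Its AP-1 match began 73 bases before that inner start. IL10RB had an NF-kB match 25 bases before its start and a gamma-activated site 11 bases into the transcript. The IL12A window held NF-kB matches at 180 and 44 bases before the start and 36 bases into the transcript. It was the only member window with an interferon response element, which began 1 base past the first transcribed base. The IL10 window shown had no match to any of the 4 motifs, and an AP-1 match lay in a window of another annotated IL10 start. In the IL23A window an NF-kB match lay 95 bases and an AP-1 match 77 bases before the start. Of all 35116 RefSeq windows of 300 bases, 25.6% held the NF-kB motif, 7.71% the AP-1 motif, 7.66% the gamma-activated site and 3.57% the interferon response element. Among the 13 member windows 6, 7, 2 and 1 did, but windows of 1 gene can overlap. A match shows only that these letters are present.

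Levels below are log2 intensity after quantile normalisation, and each value per replicate is the mean of its 3 arrays. The noise limit was set for each array from its negative values, at 3 times their root mean square, and fell between 3.72 and 4.39 on this scale. Between 69.0% and 77.8% of probes on an array lay above it, and array medians before normalisation ran from 41.5 to 100.3 intensity units. Of the 12 member probes, 7 were above the noise limit on all 9 arrays with PBD150 and LPS, 7 with LPS and 5 in untreated cells, and 10 passed a filter that kept probes above it on all 3 arrays of at least 1 culture. The 2 that did not pass were those of IL12B and IL15RA. No member probe was near saturation. The precision is limited by the 3 biological replicates per group. Because bulk RNA was measured, fewer cells expressing a gene and less of its RNA per cell cannot be told apart.

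Monocytic markers were detected, though not these alone. Of 9 measured monocyte and myeloid markers, 8 were above the noise limit on all 9 arrays of each group, among them CD33, a myeloid surface receptor, at means of 11.80 with PBD150 and LPS, 12.09 with LPS and 11.61 in untreated cells. LPS raised ITGAM and CSF1R, surface proteins of mature monocytes and macrophages, by 4.35 and 4.57 (limma, adjusted p 3.34e-06 and 4.57e-05). On the same list, PRTN3, a granule protease of immature myeloid cells, fell by 3.63 (adjusted p = 1.02e-05), and ELANE, another such protease, fell by 0.85 (adjusted p = 0.00665), with the probe saturated on 8 of 9 untreated arrays. Dendritic cell markers, which cells that make interleukin-12 family cytokines can also carry, moved with LPS in part: 2 of 6 rose, CD1C by 2.56 and CCR7 by 1.28 (adjusted p 0.00105 and 0.00486), and the log2 of their summed level ran from 10.57 to 11.18 with PBD150 and LPS, 10.54 to 10.93 with LPS and 10.07 to 10.32 in untreated cells. With PBD150 and LPS against untreated cells 2 of the 6 rose and 1 fell, against 12.6% and 13.5% of all probes. The part of these markers in the changes of the cytokine genes was not tested. Markers of other cell types were also above the noise limit on all 9 arrays of a group. They were 4 to 6 of 6 dendritic, 3 of 4 B cell and 3 to 4 of 4 NK cell markers. For T cells they were 2 to 3 of 6, and for fibroblasts or epithelium 2 to 3 of 4. Detection was therefore not particular to the monocytic list. With LPS against untreated cells 1 of 6 T cell (CD2), 1 of 4 B cell (MS4A1), 1 of 4 NK cell (NKG7) and 1 of 4 fibroblast or epithelial markers (EPCAM) rose, and the B cell marker CD79A fell. Of all probes 10.6% rose and 11.8% fell in that comparison, and whether the marker counts depart from these shares was not tested. CD3E and LCK, which define T cells, were above the noise limit on 2 to 6 of 9 arrays in each group. CD3D, which also defines them, was above it on 9 of 9 arrays in every group, with means of 11.19 with PBD150 and LPS, 11.69 with LPS and 11.17 in untreated cells (LPS minus untreated 0.52, adjusted p = 0.313).

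LPS alone was compared with no treatment to ask which of these cytokines and receptors respond to a bacterial stimulus. IL10, both chains of its receptor and EBI3 rose, and IL12A fell. In all, 7 of the 12 probes rose (IL10, both IL10RA probes, IL10RB, IL12B and both EBI3 probes) and 1 fell, while 4 genes (IL23A, IL27, IL15 and IL15RA) did not pass the test. Over all probes 22.5% passed, 10.6% higher and 11.8% lower. The median log2 difference of the 12 probes was 1.60, against 0.08 over all probes. Of the 7 that rose, 6 were above the noise limit on all 9 LPS arrays, and the exception was IL12B. Differences are given as LPS minus untreated on the log2 scale ± SE from limma, with Benjamini-Hochberg adjustment over all 30968 probes, and n is 3 biological replicates per group.

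**Figure D1:**
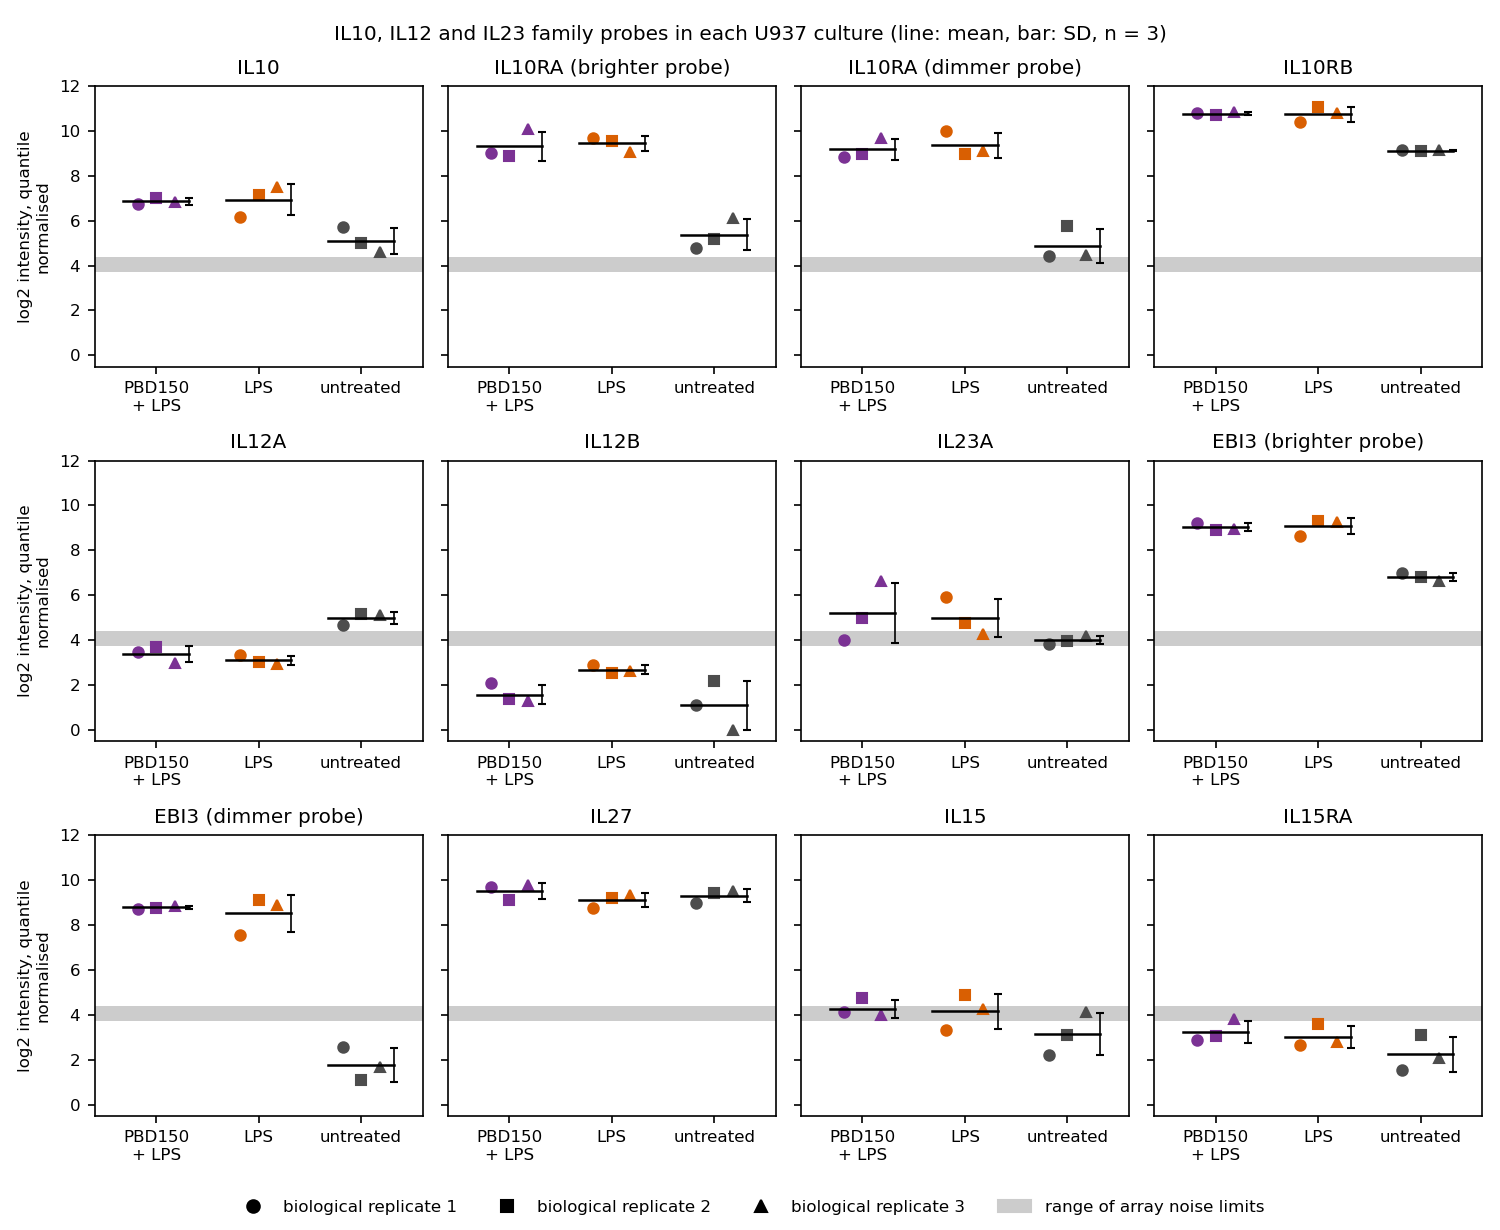
Normalised log2 intensity of the 12 member probes, 1 panel per probe, with 1 point per biological replicate (mean of 3 arrays) for PBD150 plus LPS, LPS and untreated cells, left to right. Both treated groups lie above untreated cells for IL10, IL10RA, IL10RB and EBI3 and below them for IL12A, as for IL10RB with 10.71 to 10.82, 10.39 to 11.06 and 9.09 to 9.16.

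IL10 itself (chromosome 1, GRCh38.p14, 206767602 to 206772494) had 6.73, 7.01 and 6.84 with PBD150 and LPS, 6.16, 7.15 and 7.48 with LPS, and 5.71, 5.0 and 4.59 in untreated cells. All treated replicates lay above all untreated ones, and the lowest LPS replicate was 0.44 above the highest untreated one. The LPS difference was 1.83 ± 0.39 (3.55-fold, 95% interval 1.92 to 6.58, adjusted p = 0.0104). IL10 was above the noise limit on all 27 arrays. The 3 LPS replicates spread over more than the 3 given PBD150 as well (SD 0.69 and 0.14), and LPS replicate 1 was the lowest.

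The ligand-binding receptor chain IL10RA (chromosome 11, 117986394 to 118003037) showed the largest fold among members whose untreated signal was measurable. Its brighter probe had 9.01, 8.86 and 10.07 with PBD150 and LPS, 9.70, 9.55 and 9.07 with LPS, and 4.79, 5.21 and 6.14 in untreated cells, and the groups given LPS did not overlap with untreated cells. LPS raised it by 4.06 ± 0.43 (16.7-fold, 95% interval 8.51 to 32.9, adjusted p = 0.000326). The dimmer probe, which the annotation assigns to the same gene, had 8.83, 8.99 and 9.70 with PBD150 and LPS, 10.01, 8.97 and 9.12 with LPS, and 4.41, 5.76 and 4.47 in untreated cells. Its LPS difference was 4.49 ± 0.44 (22.4-fold, 95% interval 11.1 to 45.3, adjusted p = 0.000247). In untreated cells they were above the noise limit on 8 and 7 of 9 arrays.

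IL10RB (chromosome 21, 33266367 to 33310182), the shared chain, rose with little spread between replicates. It had 10.78, 10.71 and 10.82 with PBD150 and LPS, 10.39, 11.06 and 10.78 with LPS, and 9.16, 9.09 and 9.13 in untreated cells, and the lowest treated replicate was above every untreated one. The LPS difference was 1.62 ± 0.20 (3.07-fold, 95% interval 2.22 to 4.23, adjusted p = 0.000788).

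The chains of the interleukin-12 family went different ways. IL12A (chromosome 3, 159988835 to 159996019), the chain particular to IL-12 and IL-35, was low in all groups, with 3.48, 3.70 and 2.99 with PBD150 and LPS, 3.34, 3.01 and 2.95 with LPS, and 4.68, 5.15 and 5.12 in untreated cells. Every treated replicate was below every untreated one. LPS lowered it by 1.88 ± 0.25 (difference -1.88, adjusted p = 0.000974), but the probe was above the noise limit on 2 of 9 arrays in each treated group, against 9 of 9 in untreated cells, so the size depends on values near the limit. With every value under the limit raised to it, the difference was -0.87 and still passed the test.

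IL12B (chromosome 5, 159314780 to 159330487), the chain shared by IL-12 and IL-23, was not well above background. It had 2.08, 1.39 and 1.27 with PBD150 and LPS, 2.91, 2.53 and 2.64 with LPS, and 1.14, 2.16 and 0.00 in untreated cells, and was above the noise limit on 0, 1 and 0 of 9 arrays. The LPS replicates lay above the untreated ones, and the difference of 1.59 ± 0.49 passed the test at an adjusted p of 0.0496. That call was lost under 17 of 20 alternative settings and kept under 2, and with values raised to the noise limit the difference was -0.05, so no fold is given.

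IL23A (chromosome 12, 56338884 to 56340410), the chain particular to IL-23, had 4.01, 4.98 and 6.66 with PBD150 and LPS, 5.91, 4.76 and 4.27 with LPS, and 3.83, 3.98 and 4.19 in untreated cells. Each LPS replicate was above each untreated one, by as little as 0.08 in the closest pair, and the difference of 0.98 ± 0.65 did not pass (adjusted p = 0.331). It was above the noise limit on 6, 8 and 4 of 9 arrays in that order. The replicates were scattered, with SDs of 1.34 with PBD150 and LPS and 0.84 with LPS, against 0.18 in untreated cells.

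EBI3 (chromosome 19, 4229523 to 4237528), the partner of IL27 and IL12A, rose by both of its probes, which disagreed in size. The brighter probe had 9.23, 8.92 and 8.93 with PBD150 and LPS, 8.65, 9.29 and 9.26 with LPS, and 7.0, 6.82 and 6.65 in untreated cells. The treated replicates were all above the untreated ones, and the LPS difference was 2.24 ± 0.23 (4.74-fold, 95% interval 3.30 to 6.81, adjusted p = 0.000279). The dimmer probe had 8.73, 8.78 and 8.83 with PBD150 and LPS, 7.57, 9.12 and 8.87 with LPS, and 2.54, 1.07 and 1.66 in untreated cells, where it was above the noise limit on 0 of 9 arrays. Against the noise limit it was at least 22.1-fold higher with LPS (adjusted p = 4.7e-05). The brighter probe was above the limit on all 27 arrays, so the probes differ in whether untreated cells gave a signal.

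IL27 (chromosome 16, 28499362 to 28506834), the other chain of IL-27, was above the noise limit on all 27 arrays and did not pass the test. It had 9.68, 9.10 and 9.78 with PBD150 and LPS, 8.75, 9.21 and 9.36 with LPS, and 8.97, 9.43 and 9.52 in untreated cells, and all 3 groups overlapped. The LPS difference was -0.20 ± 0.27 (95% interval -0.82 to 0.42, adjusted p = 0.651), which leaves room for a change of up to 1.77-fold down or 1.34-fold up. Its technical arrays agreed poorly, with an SD of 1.06 among arrays of the same culture, pooled over the 3 LPS cultures. With LPS the probes of IL12B, IL15 and IL15RA, near or under the noise limit, had larger ones (1.17, 2.12 and 1.78).

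IL15 (chromosome 4, 141636583 to 141733987) and its presenting receptor IL15RA (chromosome 10, 5948900 to 5978741) were both near the noise limit. IL15 had 4.10, 4.73 and 3.98 with PBD150 and LPS, 3.32, 4.88 and 4.24 with LPS, and 2.22, 3.11 and 4.11 in untreated cells, and was above the limit on 6, 7 and 3 of 9 arrays. The groups overlapped and the LPS difference of 1.00 ± 0.53 did not pass (adjusted p = 0.227), although it passed with a pseudocount of 16 (0.60, adjusted p = 0.0377) and with values raised to the noise limit (0.65, adjusted p = 0.0222). IL15RA had 2.87, 3.08 and 3.81 with PBD150 and LPS, 2.63, 3.57 and 2.80 with LPS, and 1.56, 3.09 and 2.10 in untreated cells. It was above the limit on 2 of 9 arrays in every group, and the LPS difference of 0.75 ± 0.44 did not pass (adjusted p = 0.272).

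**Figure D2:**
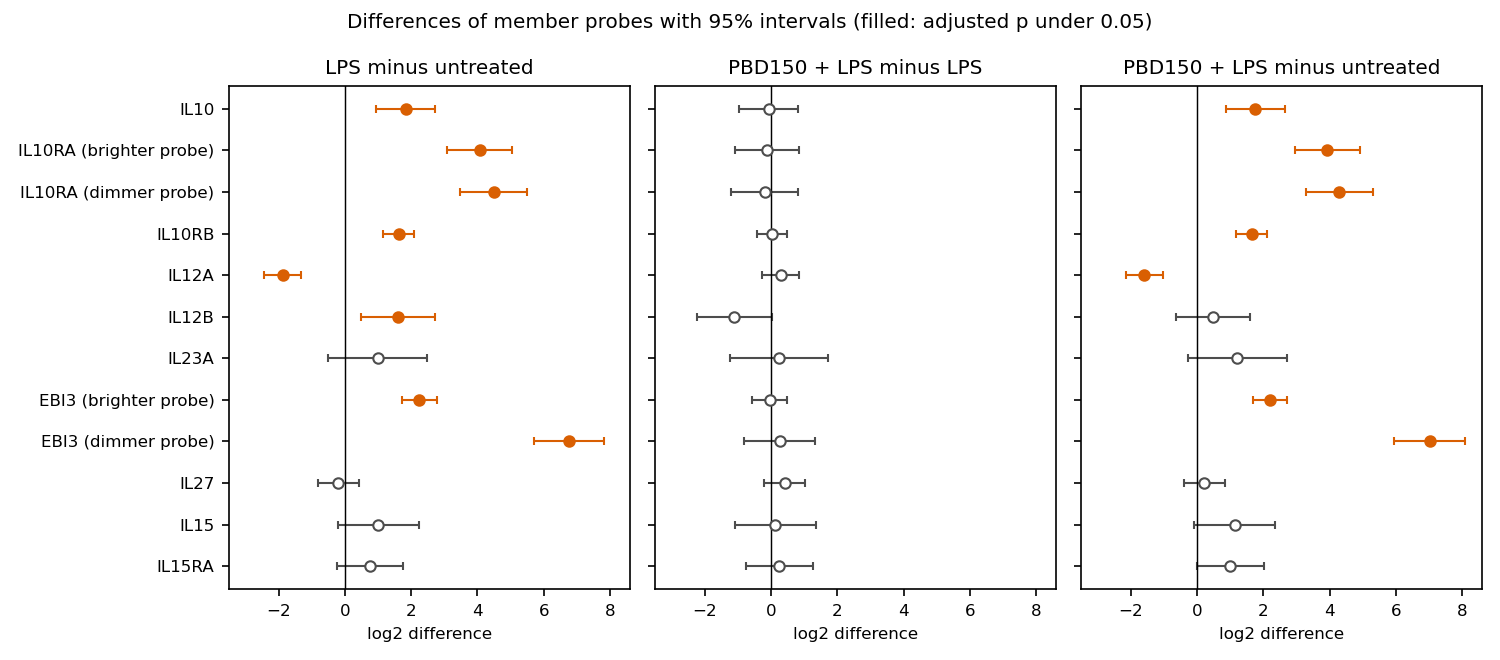
Log2 differences (x axis) of the 12 member probes (rows) in the 3 comparisons, with 95% intervals from limma, where filled points passed an adjusted p of 0.05. With PBD150 and LPS against LPS, all 12 intervals include 0, and both comparisons with untreated cells show IL10RA and EBI3 farthest to the right and IL12A on the left.

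Pretreatment with PBD150 was compared with LPS alone to ask whether the glutaminyl cyclase inhibitor altered these responses. None of the 12 probes passed the test by limma (smallest adjusted p 0.906), and 0 had an unadjusted p under 0.05. Over all probes 0% passed, and 5.11% had an unadjusted p under 0.05. The median difference of the members was 0.08, against 0.03 over all probes. The limits on a change differed by gene. The 95% interval, PBD150 plus LPS minus LPS, ran from -0.44 to 0.49 for IL10RB around a difference of 0.03, and from -0.56 to 0.48 for the brighter EBI3 probe around -0.04. Together with IL10 (-0.07, interval -0.96 to 0.82) and IL12A (0.29, interval -0.28 to 0.85), these 4 probes had intervals inside a 2-fold change either way. IL12A was above the noise limit on 2 of 9 arrays in both groups, so its interval describes values mostly under that limit and does not bound a change of IL12A RNA. For the others the data allow more: the IL10RA differences were -0.13 (interval -1.10 to 0.85) and -0.19 (interval -1.21 to 0.83), the dimmer EBI3 probe had 0.26 (interval -0.81 to 1.33), and IL27 had 0.41 (interval -0.21 to 1.03). IL23A was the least precise, at 0.23 (interval -1.25 to 1.72), and without PBD150 plus LPS replicate 3, its highest culture, the difference was -0.49. IL15 and IL15RA had 0.13 (interval -1.09 to 1.35) and 0.25 (interval -0.76 to 1.26). As for IL12A, IL15RA was above the noise limit on 2 of 9 arrays in both groups, so its interval does not bound a change of its RNA.

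IL12B was the only member whose PBD150 plus LPS replicates were all on 1 side of the LPS replicates. They were lower, at a difference of -1.11 (interval -2.24 to 0.01, adjusted p = 0.906), but 7.98% of all probes had replicates that did not overlap in this comparison, and IL12B was above the noise limit on 1 array of the 18. With values raised to the noise limit the difference was 0.08. Replicates of each group were uneven. LPS replicate 1 was the highest of the 3 for 5 member probes, the lowest for 7 and the middle for 0, against 35.3%, 41.4% and 23.2% of all probes. PBD150 plus LPS replicate 3 was the highest for 7 of the 12, against 35.5% of all probes, and untreated replicate 1 the lowest for 7, against 35.7%.

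Cells given PBD150 and LPS were also compared with untreated cells, a comparison that shares the untreated arrays with that of LPS. Of the 12 probes 6 rose (IL10, both IL10RA probes, IL10RB and both EBI3 probes) and 1, IL12A, fell, against 26% of all probes that passed, 12.6% higher and 13.5% lower. The differences were 1.76 for IL10 (adjusted p = 0.0110), 3.93 and 4.30 for the IL10RA probes (adjusted p = 0.000310 and 0.000245), 1.65 for IL10RB (adjusted p = 0.000601) and 2.20 for the brighter EBI3 probe (adjusted p = 0.000248). The dimmer EBI3 probe was at least 26.5-fold higher with PBD150 and LPS (adjusted p = 3.47e-05). IL12A fell by 1.59 (adjusted p = 0.00194), or by 0.83 (adjusted p = 0.00267) with values under the noise limit raised to it, and was above that limit on 2 of 9 PBD150 plus LPS arrays. IL23A (1.22, adjusted p = 0.207), IL15 (1.13, adjusted p = 0.159), IL15RA (1.00, adjusted p = 0.132), IL12B (0.48, adjusted p = 0.517) and IL27 (0.21, adjusted p = 0.613) did not pass, and IL15RA passed when untreated replicate 2 was left out (1.42, adjusted p = 0.0467).

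Other genes of the same pathways were counted in 5 lists, whose median log2 difference with LPS is given beside 0.08 over all probes. Of all probes 10.6% rose and 11.8% fell with LPS. With PBD150 and LPS against untreated cells 12.6% rose and 13.5% fell. The lists are short, and whether their counts depart from these shares was not tested. Among 9 measured receptors and signalling genes of the IL-12, IL-23, IL-27 and IL-35 cytokines, 2 rose with LPS and none fell (median 0.62). They were IL27RA, the receptor chain particular to IL-27, by 1.38 ± 0.25 (mean 10.04 with LPS and 8.66 in untreated cells, adjusted p = 0.00453), and IL12RB2, a chain of the IL-12 and IL-35 receptors, by 1.48 ± 0.30 (adjusted p = 0.00863). With PBD150 and LPS against untreated cells 3 of 9 rose, STAT4 (chosen after its values were seen) being the third, by 0.84 (adjusted p = 0.0470). The common chain IL6ST was above the noise limit on no array of any group, and IL12RB1 and IL23R, which form the IL-23 receptor, on none with LPS or untreated and on 1 with PBD150 and LPS.

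Of 10 measured genes of other interleukin-10 family cytokines and receptors, 3 rose with LPS and none fell, and the median was 0.09, or -0.15 with arrays centred on their medians. IL22RA1, a receptor chain for IL-22, rose by 1.64 ± 0.22 (adjusted p = 0.00119). It was above the noise limit on 3 of 9 untreated arrays, and its difference was 1.00 with a pseudocount of 16, where it still passed. IL22RA2, the soluble receptor that binds and blocks IL-22, rose by 1.51 ± 0.23 (adjusted p = 0.00194). IL19, a cytokine of the family, passed the test upwards with LPS (adjusted p = 0.0209), and it was above the noise limit on 5, 8 and 0 arrays of PBD150 plus LPS, LPS and untreated cells. With values under the noise limit raised to it, the IL19 difference was 0.44 and did not pass (adjusted p = 0.146), so no fold is given. Its call was lost in 5 of 21 alternatives for LPS and in 11 of 21 for PBD150 and LPS. With PBD150 and LPS against untreated cells 3 rose and 1 fell. The one that fell was IL20, named after its values were seen (adjusted p = 0.0142), and no size is given because it was above the noise limit on 0 arrays with PBD150 and LPS and on 2 in untreated cells.

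All 12 genes of IL10 signalling and known IL10 targets were above the noise limit on every array, and in both comparisons with untreated cells 4 rose and none fell (median 1.01 with LPS). IL1RN, the secreted antagonist of the interleukin-1 receptor, rose by 4.31 ± 0.25 (12.21 with PBD150 and LPS, 12.38 with LPS and 8.07 in untreated cells, adjusted p = 2.20e-05). BCL3, a nuclear IkB protein, rose by 3.56 ± 0.22 (adjusted p = 2.84e-05). ZFP36, which destabilises cytokine messages, rose by 2.82 ± 0.22, and DUSP1, a phosphatase of MAP kinases, by 1.52 ± 0.22 (adjusted p = 8.44e-05 and 0.00161). STAT3, the transcription factor of the IL10 receptor, moved by 0.12 ± 0.35 (adjusted p = 0.851). It had 10.24, 11.64 and 11.49 with LPS and 11.02, 10.95 and 11.05 in untreated cells. LPS replicate 1 lay below all untreated replicates, and the other LPS replicates lay above them. With PBD150 and LPS STAT3 had 11.27, 11.43 and 11.68, all above untreated cells, but the difference of 0.45 did not pass (adjusted p = 0.381). SOCS3, a feedback inhibitor of STAT signalling, moved by 1.12 ± 0.56 with LPS (adjusted p = 0.202).

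In the common gamma chain family, 6 of 13 measured genes rose with LPS and none fell (median 0.53), with 6 rising also in PBD150 plus LPS against untreated cells. With arrays centred on their medians 4 rose with LPS and 3 with PBD150 and LPS. IL21R rose by 1.83 ± 0.17 (adjusted p = 0.000178), IL2RG, the common chain itself, by 1.04 ± 0.16 (12.91 with PBD150 and LPS, 12.83 with LPS and 11.79 in untreated cells, adjusted p = 0.00225), IL7R by 3.84 ± 0.60 (adjusted p = 0.00228) and IL4R by 1.26 ± 0.23 (adjusted p = 0.00555). IL7R was above the noise limit on 1 array of untreated cells, so its size depends on values near the limit. IL2RB, the chain through which IL15 signals, was chosen here after its values were seen, and rose by 0.76 ± 0.17 (adjusted p = 0.0125), a call lost in 3 of 21 alternatives. Among 13 measured transcription factors known to act at these genes, 3 rose with LPS and none fell (median 0.22). With arrays centred on their medians 3 rose and 1 fell (median 0.09), and with values as deposited 5 rose and none fell (median 0.57). The 3 that rose with quantile normalisation were PRDM1, a repressor, by 3.44 ± 0.31 (adjusted p = 0.000172), IRF1 by 1.31 ± 0.16 (adjusted p = 0.000804) and CEBPB by 1.51 ± 0.21 (adjusted p = 0.00124). With PBD150 and LPS against untreated cells 3 rose and 1 fell, CREB1, named after its values were seen, by 1.52 (adjusted p = 0.0275).

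With PBD150 and LPS against LPS, 0 genes of the 5 lists passed by limma, and 5 of the 54 had an unadjusted p under 0.05, against 5.11% of all probes. MAF, a transcription factor that drives IL10 in macrophages and T cells, averaged 5.14 ± 0.24 with PBD150 and LPS and 4.21 ± 0.27 with LPS (SD, n = 3 each), a difference of 0.93 (adjusted p = 0.906). Its LPS mean lay within the range of the array noise limits (3.72 to 4.39), so the size depends on values near the limit. NFKB1, an NF-kB subunit, averaged 9.02 ± 0.29 and 9.55 ± 0.24 in the same order (difference -0.53, adjusted p = 0.906). IL7, a T cell growth factor, did not pass (adjusted p = 0.899), and its probe was above the noise limit on 2 arrays with PBD150 and LPS and on 0 with LPS. IL22, an IL-10 family cytokine, averaged 5.33 ± 0.29 and 4.70 ± 0.22 in the same order (difference 0.62, adjusted p = 0.906). IL9R, the IL-9 receptor, averaged 3.81 ± 0.14 and 2.80 ± 0.61 (difference 1.00, adjusted p = 0.906) and was above the noise limit on 4 and 3 arrays.

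**Figure D3:**
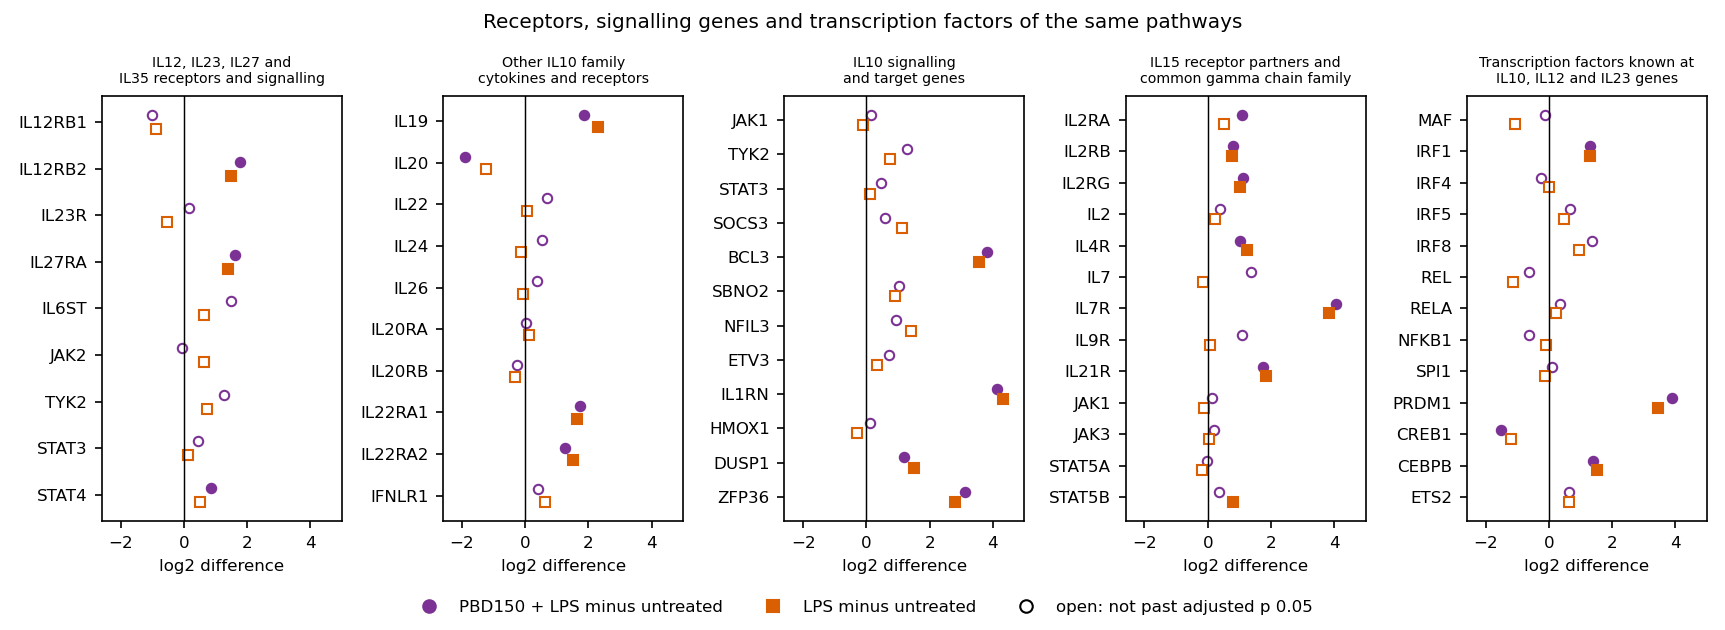
Log2 differences (x axis) from untreated cells of the receptors, signalling genes and transcription factors of the pathways, 1 panel per list, with circles for PBD150 plus LPS and squares for LPS and open symbols for genes that did not pass an adjusted p of 0.05. The rises named above, IL1RN at 4.14 and 4.31 and PRDM1 at 3.90 and 3.44 for PBD150 plus LPS and LPS in that order, stand out to the right.

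Genes with the most similar profile over the 9 replicates, after each was set to 0 at its untreated mean, were found among 9266 candidate genes by the root mean square difference in log2. Candidates were genes whose brightest probe had a mean at or above the median of all probes. Dim members such as IL12A and IL12B were therefore compared only with brighter genes. For IL10RB they were STX11 (0.0999) and ARHGAP30 (0.123), and for the brighter EBI3 probe FAM89B (0.135) and MBOAT7 (0.144). IL10 was nearest to DUSP18 (0.258) and LYN (0.293). The brighter IL10RA probe was nearest to GPR34 (0.375) and IL1RN (0.378), and the dimmer to CCL26 (0.373) and IL1RN (0.439), so IL1RN was among the nearest genes of both. The dimmer EBI3 probe was nearest to PPBP (0.383) and CD14 (0.495), and IL12A to ECT2 (0.192) and HYLS1 (0.233). IL12B was nearest to PKHD1 (0.436) and MS4A1 (0.481), which is read with its low signal in mind. With the values as deposited, or centred on array medians, 12 of the 16 named genes stayed among the 2 nearest, but neither STX11 nor ARHGAP30 did. These values describe the 9 replicates and say nothing of shared function.

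**Figure D4:**
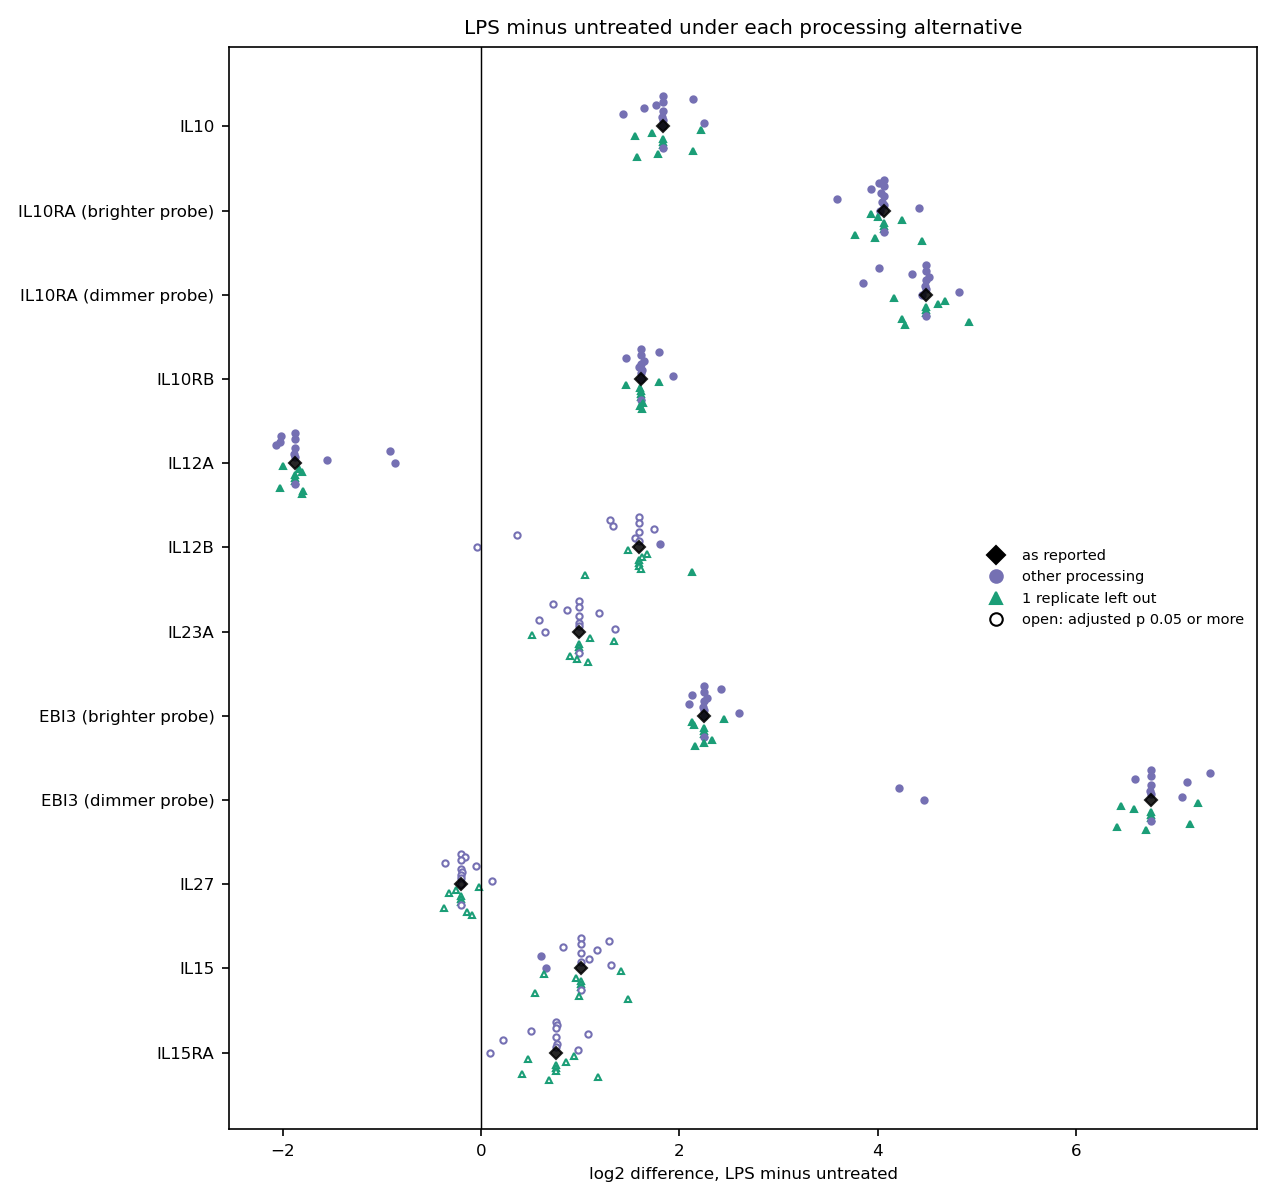
LPS minus untreated log2 difference (x axis) of each member probe (rows), as reported (diamond) and under each alternative, with 1 replicate left out (triangles) or with other processing (circles), where open symbols did not pass an adjusted p of 0.05. The points of IL10, IL10RA, IL10RB, EBI3 and IL12A stay on 1 side of 0 and filled, while most of those of IL12B are open.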

How the data were processed

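RNA of U937 cells, labelled with Cy5, was hybridised to Phalanx Human OneArray slides (1 colour), per the labels. Linear intensity values, 1 per probe and array, were deposited. Some lie below 0, so background had been subtracted, and for the authors' scaling the steps were not given in the sources used here. No per-sample column was left unused. Intensities were floored at 1 (4.35% to 7.59% of an array), log2 transformed and quantile normalised over 27 arrays, since array medians differed. The 3 arrays of a replicate were averaged. Tests used limma 3.58.1 (R 4.3.3), a group-means model over 9 replicates, moderated variances, two-sided, Benjamini-Hochberg at 0.05 over all probes, tested on simulated data. The labels call replicates biological but not separate cultures. The tests therefore set each difference only against the spread between these samples. A culture in this text means 1 biological replicate. A common spread per probe was fitted for all groups; median replicate SDs were 0.373 with PBD150 and LPS, 0.365 with LPS and 0.206 untreated. Folds written as "at least" divide the brighter mean by the dimmer one after raising values under the noise limit to it. Symbols came from the platform table. All members were named. Of each list, up to 4 genes with the smallest p for LPS and the 2 with the smallest p for PBD150 and LPS against LPS could be named. For each called member the 2 nearest genes could be named. STAT3, SOCS3, IL6ST, IL12RB1 and IL23R were named outside this rule. Members and lists were chosen with earlier results of these data known.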

Additional observations from a re-analysis of the deposited data

How the results depend on the processing

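Processing alternatives were the scaling, floor and pseudocount, a dim-probe filter, technical arrays, array weights, moderation, samples in the fit, the replicate block and each replicate left out; raising values under the noise limit to it was chosen after seeing the data. Of 12 probes, 6 to 7 rose and 1 fell with LPS, 6 to 7 rose and 1 fell with PBD150 and LPS against untreated cells, and 0 passed with PBD150 and LPS against LPS, under every alternative. With the replicate block 6 rose and 1 fell with LPS, since IL12B was lost (adjusted p = 0.0583), and no other member call changed. Deviations from the group means had correlations of -0.219 to 0.036 between same-numbered replicates of different groups. Between differently numbered ones they were -0.0715 to 0.189. The labels do not say whether a number marks a shared day, and these correlations cannot decide it.

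Scaling moved all probes: the median LPS difference was 0.08, 0.41 as deposited and -0.07 median centred, with 3292 rises and 3664 falls, 5935 and 2205, and 2279 and 3806 (47.3%, 72.9% and 37.5% rises). Against untreated cells, PBD150 and LPS gave 0.11, 0.31 and -0.01, and 48.2%, 62.2% and 38.2% rises. Counts moved by over 1.5 times also with array weights (5458 rises and 5552 falls for LPS, 6373 rises for PBD150 and LPS), without untreated replicate 2 (2415 falls) and with a random block for PBD150 and LPS against LPS (1 rise, 13 falls).

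Several differences changed sign. Those of IL12B were not near 0 in the main fit. They were 1.59 for LPS, which had passed the test, and -1.11 for PBD150 and LPS against LPS. For PBD150 and LPS against LPS, array weights gave IL10RB -0.16, the dimmer EBI3 probe -0.12, IL15 -0.16 and IL15RA -0.16. Median centring gave IL10RB -0.022, the median of technical arrays IL10RB -0.031, IL27 -0.037 and IL15 -0.033, the deposited values IL10RB -0.18 and IL15 -0.0087, the pseudocount IL15 -0.11, and raised values IL15 -0.23 and IL12B 0.079. For LPS, IL27 was 0.11 as deposited and IL12B -0.046 with raised values. For PBD150 and LPS against untreated cells, the median of technical arrays gave IL12B -0.10 and IL27 -0.087. Leaving out 1 replicate, the PBD150 and LPS minus LPS differences ran from -0.46 to 0.21 for IL10, -0.51 to 0.10 and -0.45 to 0.13 for the brighter and dimmer IL10RA probes, -0.15 to 0.19 for IL10RB, -0.49 to 0.84 for IL23A, -0.25 to 0.073 and -0.22 to 0.56 for the brighter and dimmer EBI3 probes, -0.29 to 0.49 for IL15 and -0.029 to 0.54 for IL15RA; IL12B against untreated cells ran from -0.067 to 1.01. The cause was not tested. IL12B, IL12A with LPS, IL15 and IL15RA were limited by signal over background.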
